A study of Mus musculus with 28 samples.

Results

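Acute phase proteins are plasma and tissue proteins whose production by the liver changes with inflammation. Their genes were followed here through 10 members, namely Saa1, Saa2, Saa3, Lcn2, Orm1, Orm2, Orm3, Hp, Apcs and Mt2. The members were chosen by symbol, with earlier results of these data known. All 10 were found among the 49585 gene features of a liver RNA-seq count table and had a count above 0 in every library, the lowest being 16 reads, and all 10 were among the 21583 genes tested. The table held 28 livers of C57BL/6JOlaHsd mice aged 5 to 7 months by the labels, with 7 WT and 7 SIRT6-tg mice of each sex. The study asked how overexpression of SIRT6, an NAD-dependent deacylase linked to lifespan, acts on liver gene expression. The mice had been fasted for some hours before sampling. WT mice carried no transgene, and SIRT6-tg mice carried extra Sirt6 in the whole body from a single transgenic line, so that line and transgene cannot be told apart.

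The acute phase response is driven by cytokines that macrophages and other cells release. IL-6 family cytokines act on hepatocytes through gp130 and STAT3, while IL-1 and TNF act through NF-kB, and C/EBP factors take part in both. Serum amyloid A, haptoglobin and the orosomucoids are classical secreted products of the mouse liver, and several of them are also made by macrophages, adipocytes or epithelia.

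The chosen genes fall into 4 kinds. Saa1 and Saa2 encode the inducible serum amyloid A apolipoproteins of HDL, and Saa3 a form that cells outside the liver parenchyma also make. Orm1, Orm2 and Orm3 encode orosomucoids (alpha-1-acid glycoproteins), which carry basic drugs and lipids in plasma. Lcn2 encodes lipocalin-2, which binds bacterial iron siderophores, and Hp encodes haptoglobin, which captures free haemoglobin. Apcs encodes serum amyloid P component, a pentraxin that is an acute phase protein in mice, and Mt2 encodes metallothionein-2, an intracellular zinc-binding protein.

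Reads per library summed to between 18758863 and 35393069, with no pair of libraries of a group alike within sampling noise. Levels below are CPM, read counts relative to the library total, scaled by trimmed mean of M-values (TMM), and differences are log2 fold changes from an edgeR quasi-likelihood fit to all 28 libraries. A gene is called where its Benjamini-Hochberg adjusted p over all genes tested was under 0.05. Sirt6 itself lay between 198 and 358 CPM in male SIRT6-tg livers and between 1.69 and 3.24 CPM in male WT livers. In females it lay between 16.4 and 50.2 CPM in SIRT6-tg and between 1.81 and 6.22 CPM in WT, so the transgene was expressed more strongly in males and sex cannot be told apart from transgene level in any comparison of the genotype effect. By the study's methods WT and SIRT6-tg mice were littermates, but the labels tie no mouse to a litter, so litter could not enter the fit. Livers were measured whole, so fewer cells of a type and less RNA per cell cannot be told apart.

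The genes lie in part in clusters of near copies. Saa3, Saa1 and Saa2 lie within 42316 bases of chromosome 7 of GRCm38, Saa3 at 46711998 to 46715700 and Saa1 at 46740497 to 46742980 on the minus strand, and Saa2 at 46751790 to 46754313 on the plus strand. Orm1, Orm3 and Orm2 follow each other on the plus strand within 21319 bases of chromosome 4, at 63344560 to 63348163, 63356162 to 63359511 and 63362449 to 63365878. The others stand alone: Lcn2 on chromosome 2, Apcs on chromosome 1, and Hp and Mt2 on chromosome 8. The Saa1 and Saa2 transcripts were 93.9% identical and those of Orm1 and Orm2 91.0%, whereas Saa1 and Saa3 shared 62.2%. Of all 50-base windows of a transcript, 14.8% for Saa1, 13.3% for Saa2, 20.4% for Orm1 and 21.8% for Orm2 also occur in a paralog, against 1.8% for Saa3 and 3.6% for Orm3. Only uniquely mapped reads were counted, so the levels of Saa1, Saa2, Orm1 and Orm2 carry this uncertainty.

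The upstream sequences of the paralogs are shown because Saa2 fell by more than Saa1 in males, as given later, and because Orm2 was called there and Orm3 was not, a difference between genes that was not tested. A window of 250 bases before the transcription start was found in RefSeq (GRCm38.p6) for 8 of the 10 genes, not for Orm1 and Hp. Capitals mark matches, on either strand, to the STAT-type motif TTCNNNGAA, the C/EBP-type motif TTGCNNAA, the NF-kB-type motif GGNNTTTCC or the metal response core, TGCGCNC or TGCACNC, where N is any base.
Saa1, chr7:46742981-46743230, minus strand: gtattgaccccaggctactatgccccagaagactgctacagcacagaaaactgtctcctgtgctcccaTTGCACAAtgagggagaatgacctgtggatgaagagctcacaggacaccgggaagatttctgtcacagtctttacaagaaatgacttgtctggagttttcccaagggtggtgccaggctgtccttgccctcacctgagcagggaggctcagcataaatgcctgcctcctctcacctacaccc
Saa2, chr7:46751583-46751789, plus strand, the 207 bases before its first annotated exon: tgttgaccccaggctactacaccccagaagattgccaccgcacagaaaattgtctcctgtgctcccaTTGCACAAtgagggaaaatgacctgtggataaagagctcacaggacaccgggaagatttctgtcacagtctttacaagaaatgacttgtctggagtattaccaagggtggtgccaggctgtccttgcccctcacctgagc
Orm2, chr4:63362199-63362448, plus strand: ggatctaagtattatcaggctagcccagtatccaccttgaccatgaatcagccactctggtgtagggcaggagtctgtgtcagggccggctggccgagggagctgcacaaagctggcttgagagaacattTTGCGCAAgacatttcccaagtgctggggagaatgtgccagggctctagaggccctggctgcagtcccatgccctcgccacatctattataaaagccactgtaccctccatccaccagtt
Orm3, chr4:63355908-63356157, plus strand: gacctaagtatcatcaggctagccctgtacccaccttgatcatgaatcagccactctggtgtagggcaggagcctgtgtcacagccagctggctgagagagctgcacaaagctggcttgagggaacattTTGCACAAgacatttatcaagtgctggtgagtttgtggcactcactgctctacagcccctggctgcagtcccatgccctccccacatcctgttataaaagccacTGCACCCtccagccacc
Mt2, chr8:94172368-94172617, plus strand: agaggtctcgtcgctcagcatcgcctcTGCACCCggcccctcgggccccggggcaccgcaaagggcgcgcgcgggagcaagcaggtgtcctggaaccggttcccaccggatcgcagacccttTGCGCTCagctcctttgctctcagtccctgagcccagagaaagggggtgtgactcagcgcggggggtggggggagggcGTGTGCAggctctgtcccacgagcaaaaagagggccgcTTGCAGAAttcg

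A C/EBP-type match was present in 7 of the 8 windows, that is in all but Apcs, against 9.56% of the 32851 RefSeq windows of the same length. It lay 182 to 175 bases before the start of Saa1 and 183 to 176 before that of Saa2, within windows that were 94.8% identical. In Orm2 and Orm3, whose windows were 85.5% identical, it lay 120 to 113 and 121 to 114 bases before the start. Matches in near copies are not independent of each other. The stretches around the match in Lcn2 and Saa3 are shown because these genes have no near copy. By the Gencode annotation 197 of the 250 bases of the Lcn2 window, 43 of that of Saa2 and 24 of that of Saa3 lie in exons of the gene itself, and the Lcn2 stretch lies inside an exon of 1 of its transcripts, so these windows are upstream of the RefSeq start only.
Lcn2, chr2:32387940-32387963, minus strand: ccttcctgTTGCTCAAccttgcac
Saa3, chr7:46715760-46715783, minus strand: aagtgggaTTATGCAAgatcaaac
The STAT-type motif was found only in Apcs (7.02% of all windows) and the NF-kB-type motif only in Saa3 (4.93% of all windows). The metal response core was found in Mt2, at 3 places, and in Orm3, against 21.41% of all windows. Windows of this length hold only part of a promoter, and a match is not a site of binding.

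**Figure D1:**
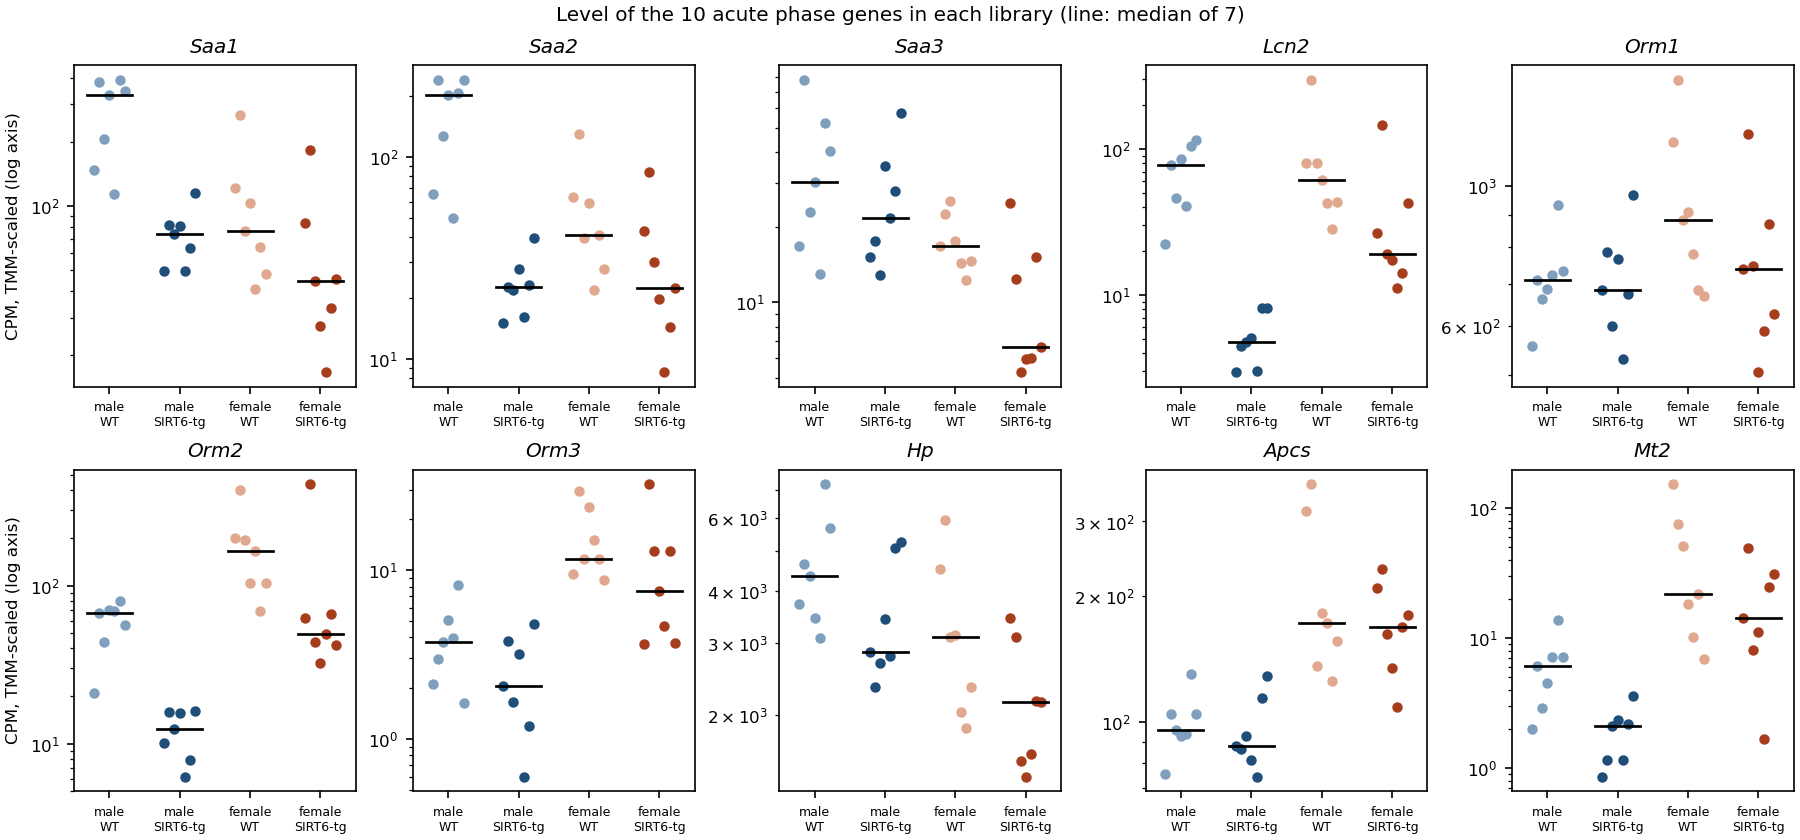
Each panel plots 1 gene, with the TMM-scaled CPM of each of the 28 libraries on a log axis by group and the median of 7 as a line. Male SIRT6-tg livers lie below every male WT liver for Saa2, Lcn2 and Orm2, and female livers spread over a wide range for Lcn2, Orm2 and Mt2.

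Per length of all annotated exons, haptoglobin had the highest mean of these transcripts in every group, although in females Orm1 lay within its SD. The exons of Saa1, Saa2 and Saa3 add up to 2478, 2518 and 2606 bases, but the transcripts compared above had only 609, 606 and 555. For Orm1 and Orm2 both lengths were 775 bases. The places of the Saa genes in the orders below therefore hold for this length only, and over the shorter transcripts they would stand higher. In male WT livers Hp stood at 2859 ± 905 CPM per kilobase of exon (mean ± SD, n = 7), Orm1 at 922 ± 146 and Saa1 at 111 ± 46.8. Apcs (103 ± 17.1), Orm2 (75.2 ± 25.9), Saa2 (64.3 ± 32.0), Lcn2 (26.8 ± 13.2), Saa3 (13.9 ± 8.78), Mt2 (10.6 ± 6.63) and Orm3 (5.12 ± 2.84) followed. Of these neighbours Saa1 and Apcs, Orm2 and Saa2, and each pair from Lcn2 down to Orm3 lay within the larger SD of the pair. This SD is the spread between mice, and the order of such genes within a liver was not tested in any group. In female WT livers the order after Hp (2039 ± 921) and Orm1 (1213 ± 378) was Orm2 (228 ± 143), Apcs (214 ± 97.8) and Mt2 (82.0 ± 89.2). Orm2 and Apcs lay within the larger SD of the pair, and so did Mt2 and the next gene, Saa1 (41.6 ± 31.4). In male SIRT6-tg livers Hp (2170 ± 739), Orm1 (923 ± 184) and Apcs (98.01 ± 19.99) led over all exons. Lcn2 (2.001 ± 0.833), Orm3 (3.21 ± 1.97) and Mt2 (3.26 ± 1.61) were at the low end, within the larger SD of each pair, and over the longest transcript instead of all exons Orm3 (3.21) lay below Mt2 (3.75) and Lcn2 (3.82). In female SIRT6-tg livers Hp (1373 ± 489), Orm1 (974 ± 301), Apcs (176 ± 42.8) and Orm2 (135 ± 190) led, the last of these with a spread above its mean. Over all exons Saa3 had the lowest mean there (4.19 ± 2.80), within the SD of Saa2 (12.6 ± 10.2).

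In males, SIRT6-tg livers held less Lcn2, Saa2, Orm2 and Saa1 RNA than WT livers. Lcn2 was 13.5 times, Saa2 6.82 times, Orm2 4.87 times and Saa1 3.74 times lower by the fit. So 4 of the 10 genes were called lower and 0 higher, where 11.0% of all genes tested were called lower and 9.68% higher. Because the 10 genes were chosen with earlier results of these data known, shares over all genes give a scale and no independent measure of the set. In 3 of the 10, Saa2, Lcn2 and Orm2, every SIRT6-tg liver lay below every WT liver, which held for 4.37% of all genes. The median log2 fold change was -1.19 over the 10 genes and 0.06 over all genes tested. Of all calls in males 46.8% were higher, a share that was 35.7% with RLE, 26.2% with upper-quartile scaling and 4.89% with library size alone, and the 4 genes were called lower under each of these.

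Serum amyloid A1 and A2 fell together in males. Saa2 had 49.9, 202.6 and 240.5 CPM as the lowest, median and highest of the 7 male WT livers and 15.0, 22.6 and 39.8 CPM in male SIRT6-tg livers. The lowest WT liver was thus above the highest SIRT6-tg liver, and the log2 fold change was -2.77 ± 0.47 (SE; edgeR, adjusted p = 8.96e-05). Saa1 had 113.95, 332 and 391 CPM in male WT and 49.7, 73.8 and 114.7 CPM in male SIRT6-tg livers. Here 6 of 7 SIRT6-tg livers lay below every WT liver and the highest SIRT6-tg liver just reached the lowest WT liver (-1.90 ± 0.46, adjusted p = 0.00358). Counted as 1 gene, Saa1 and Saa2 gave -2.17 ± 0.46 (adjusted p = 0.00107), so their sum was called as well. Saa3 overlapped widely, with 13.0 to 78.0 CPM in male WT and 12.8 to 57.6 CPM in male SIRT6-tg livers (-0.44 ± 0.39, adjusted p = 0.486).

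Lipocalin-2 was the gene with the largest fold difference of the 10. Its level was 22.5, 78.2 and 115.6 CPM (lowest, median, highest) in male WT and 2.96, 4.81 and 8.22 CPM in male SIRT6-tg livers. No SIRT6-tg liver came near the WT range, and the log2 fold change was -3.75 ± 0.61 (adjusted p = 5.83e-05).

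The orosomucoids did not move as a family. Orm2 had 21.02, 66.8 and 80.1 CPM in male WT and 6.18, 12.3 and 16.0 CPM in male SIRT6-tg livers, with no overlap (-2.28 ± 0.52, adjusted p = 0.00218). Orm1, which made up most orosomucoid reads, ranged from 556 to 933 CPM in male WT and from 532 to 969 CPM in male SIRT6-tg livers, ranges that nearly coincided (0.0011 ± 0.18, adjusted p = 0.999, with a sign that turned under most other scalings). Orm3 was low throughout, with 1.63 to 8.18 CPM in male WT and 0.60 to 4.83 CPM in male SIRT6-tg livers (-0.68 ± 0.50, adjusted p = 0.376). Summed over the 3 genes the difference was -0.09 ± 0.21 (adjusted p = 0.815).

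Mt2 lay below the WT median in all 7 male SIRT6-tg livers but did not pass the threshold. It had 2.002, 6.06 and 13.8 CPM in male WT and 0.86, 2.11 and 3.61 CPM in male SIRT6-tg livers (-1.71 ± 0.68, adjusted p = 0.0772). Mt2 was called lower with DESeq2 and under 3 other settings, so its call depends on the method. Hp (-0.40 ± 0.26, adjusted p = 0.299) and Apcs (-0.07 ± 0.20, adjusted p = 0.870) were not called. For Apcs the interval of 2 SE ran from -0.47 to 0.34, and for Orm1 from -0.35 to 0.35.

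**Figure D2:**
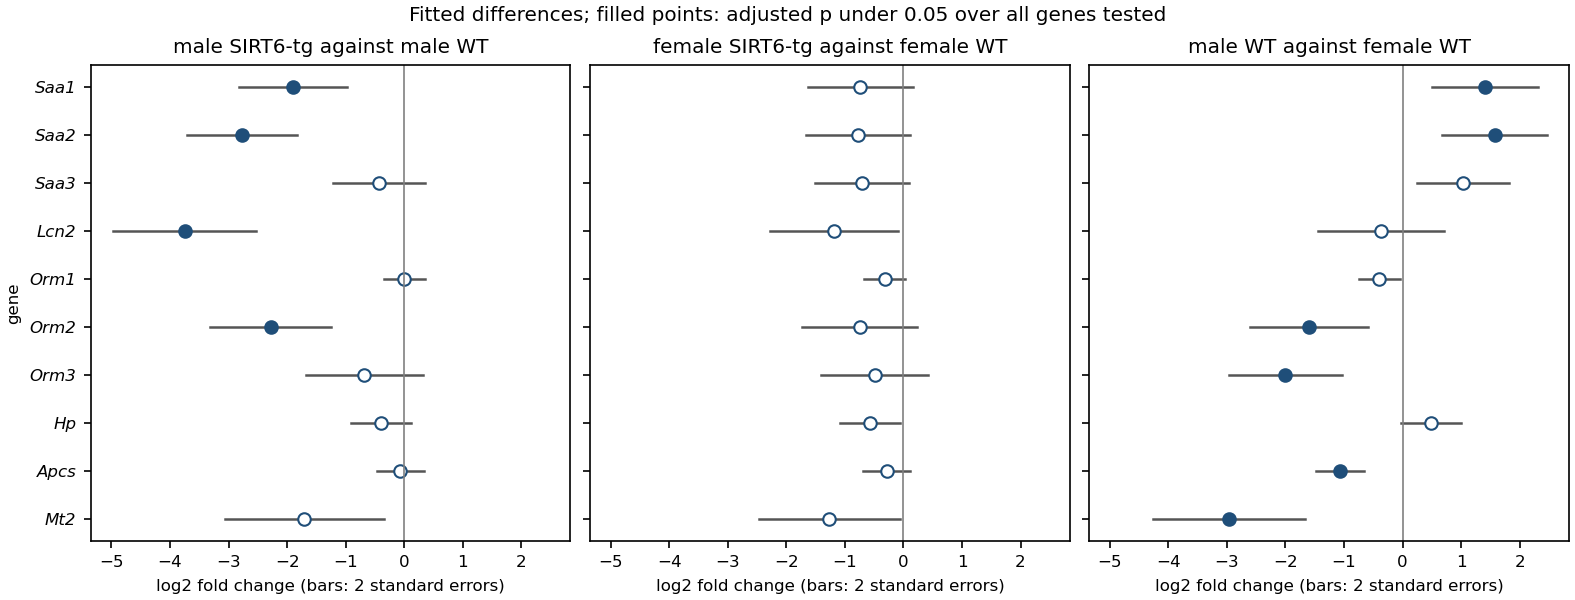
Points give the fitted log2 fold change of each gene in 3 comparisons, bars 2 standard errors, and filled points an adjusted p under 0.05 over all genes tested. In males 4 points left of 0 are filled, in females none is, and between WT males and WT females 2 are filled to the right and 4 to the left.

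The ratio of the paralogs within a library, which needs no scaling between libraries, was compared after the values above had been seen. In male WT livers Saa2 counts were 0.438 to 0.692 of Saa1 counts (median 0.610), and in male SIRT6-tg livers 0.278 to 0.367 (median 0.324). All 7 SIRT6-tg livers thus had a lower ratio than any WT liver, and Saa2 fell by more than Saa1 (difference in mean log2 ratio -0.80 ± 0.11, SE). The exact two-sided permutation test gave p = 0.000583, the smallest that 3432 splits allow, and 0.00175 after adjustment over 6 tests. The range in female WT livers was 0.485 to 0.639 and in female SIRT6-tg livers 0.431 to 0.720, and these overlapped (-0.03 ± 0.12, exact permutation p = 0.791, adjusted p = 0.792). Between the sexes the effect of genotype on this ratio differed by -0.77 on the log2 scale (permutation of residuals within each sex, p = 5e-05, adjusted over 2 ratios 1e-04).

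Orm2 counts were 0.0378 to 0.102 of Orm1 counts in male WT and 0.0116 to 0.0206 in male SIRT6-tg livers, again with no overlap (-2.25 ± 0.23, exact permutation p = 0.000583, adjusted p = 0.00175). In females the ratio was 0.101 to 0.271 in WT livers. It was 0.0588 to 0.0847 in 6 of the 7 SIRT6-tg livers and 0.362 in SIRT6-tg replicate 2. With that liver the difference in females was -0.90 ± 0.39 (exact permutation p = 0.0466, adjusted p = 0.0699), and without it -1.23 (adjusted p = 0.00262). The genotype effect differed between the sexes by -1.35 (permutation p = 0.00257, adjusted p = 0.00257), and by -1.02 without that liver (adjusted p = 0.0044). WT males had a lower Orm2 to Orm1 ratio than WT females (-1.14 ± 0.27, exact permutation p = 0.00117, adjusted p = 0.00233).

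**Figure D3:**
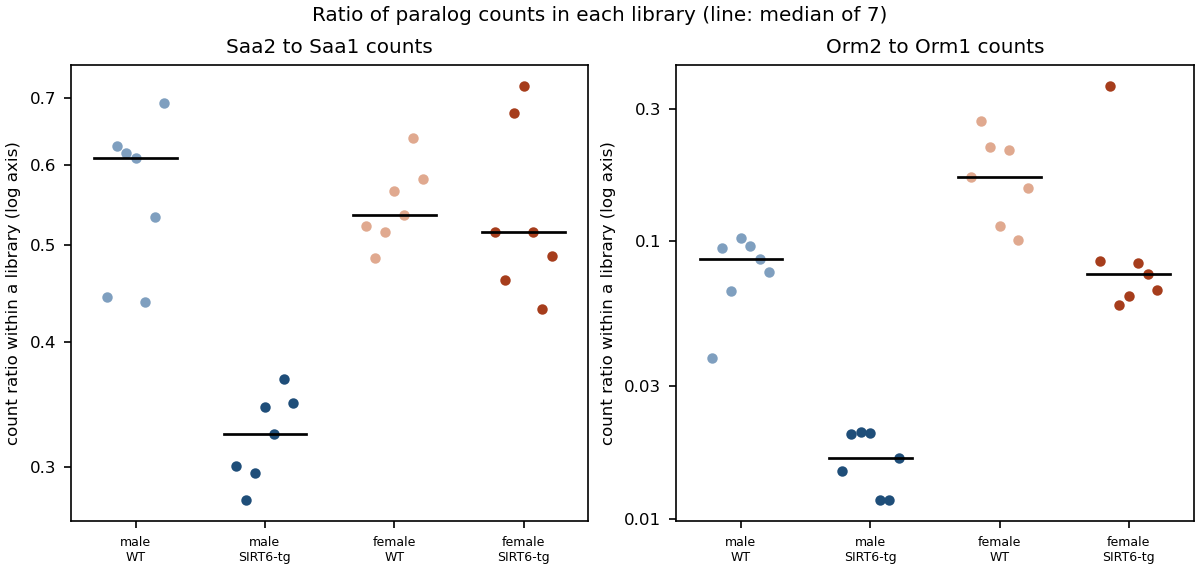
Each point is 1 library, with the count of Saa2 over that of Saa1 on the left and of Orm2 over that of Orm1 on the right, on log axes, and the line is the median of 7. In both panels the 7 male SIRT6-tg livers lie below the other groups, and 1 female SIRT6-tg liver, at 0.362, stands above its group on the right.

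In females all 10 genes had a fitted level that was lower in SIRT6-tg than in WT livers, and 0 were called, where 0.0278% of all genes tested (6 genes) were called in either direction. By edgeR 3 of the 10 had an unadjusted p under 0.05, as did 1212 of all 21583 genes, and DESeq2 also called 0 of the 10. The median log2 fold change was -0.72 over the 10 genes and 0.0026 over all genes. The largest were Mt2 (-1.26 ± 0.60, adjusted p = 0.872) and Lcn2 (-1.19 ± 0.55, adjusted p = 0.839). Both sat in wide ranges, and single libraries set their size. Lcn2 was -0.51 (adjusted p = 1.0) without female WT replicate 2 and -2.06 (edgeR, adjusted p = 0.132) without female SIRT6-tg replicate 2, and over all single libraries left out Mt2 ran from -1.67 to -0.62.

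Lcn2 had 28.3, 61.8 and 298 CPM (lowest, median, highest) in female WT and 11.2, 19.03 and 146.7 CPM in female SIRT6-tg livers. Here 5 of 7 SIRT6-tg livers lay below every WT liver, and 1 lay far above the rest. For Saa1 the values were 40.9, 76.7 and 267 CPM in female WT and 16.6, 44.7 and 182 CPM in female SIRT6-tg livers (-0.73 ± 0.45, adjusted p = 1.00). Saa2 stood at 21.9, 40.9 and 129 CPM against 8.57, 22.3 and 84.2 CPM (-0.78 ± 0.44, adjusted p = 0.975), and Saa3 at 12.3, 16.9 and 25.5 CPM against 5.25, 6.65 and 25.0 CPM (-0.70 ± 0.40, adjusted p = 0.974). The groups overlapped for each serum amyloid A gene.

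Orm2 in females rested on 1 library. Female WT livers had 69.1, 165.6 and 400 CPM, and 6 of the 7 SIRT6-tg livers, at 32.2 to 66.3 CPM, lay below all of them, while SIRT6-tg replicate 2 had 438 CPM, above all of them. With every library the log2 fold change was -0.75 ± 0.49 (adjusted p = 1.00), and without that library it was -1.84 (adjusted p = 0.0257). Female SIRT6-tg replicate 2 also held the highest level of its group for Saa1, Saa2, Lcn2, Orm1, Orm3, Apcs and Mt2, and female WT replicate 2 that of its group for Saa1, Saa2, Lcn2, Orm1, Orm2, Orm3, Hp and Apcs. With both libraries left out, an alternative chosen after seeing the data, Orm2 was the only gene called in females (-1.50, adjusted p = 0.0386) and the 4 male calls stood.

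Hp had 1861, 3088 and 5943 CPM in female WT and 1422, 2155 and 3439 CPM in female SIRT6-tg livers (-0.57 ± 0.26, adjusted p = 0.814). Apcs had 126, 172 and 368 CPM against 109, 168 and 231 CPM (-0.29 ± 0.20, adjusted p = 1.00). Orm1 (-0.32 ± 0.18, adjusted p = 0.953) and Orm3 (-0.49 ± 0.46, adjusted p = 1.00) were not called either.

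A call in males and none in females does not show that the sexes differ, so the difference of the effects was tested. It was called for 0 of the 10 genes, where 5.05% of all genes tested were called in either direction, and 3 of the 10 had an unadjusted p under 0.05. The male effect exceeded the female one most for Lcn2 (-2.56 ± 0.79, adjusted p = 0.0590), Saa2 (-1.99 ± 0.63, adjusted p = 0.0658) and Orm2 (-1.53 ± 0.70, adjusted p = 0.234). Lcn2 and Saa2 passed with DESeq2, which called 2 of the 10, and under other settings given in the closing section. For Saa1 the difference was -1.17 ± 0.63 (adjusted p = 0.328). The male and female effects use separate libraries, but the comparison of WT males with WT females uses the WT libraries of both.

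Among WT mice the sexes already differed in 6 of the 10 genes. Males held more Saa2 (1.57 ± 0.45, adjusted p = 0.0198) and Saa1 (1.41 ± 0.45, adjusted p = 0.0390), so 2 genes were called higher, where 6.65% of all genes were. Females held more Mt2, Orm3, Orm2 and Apcs, so 4 were called lower in males, where 5.71% of all genes were. The calls of Saa1 and Orm2 were each lost without any of 9 single libraries and with no filter on low counts, with adjusted p up to 0.0814 and 0.103. Saa2 kept its call in every setting run, and 4 of 7 male WT livers lay above every female WT liver for each of Saa1 and Saa2.

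Mt2 showed the largest sex difference, with 2.002 to 13.8 CPM in male WT against 6.90, 21.9 and 153 CPM (lowest, median, highest) in female WT livers (-2.96 ± 0.65, adjusted p = 0.00265). Its neighbour Mt1, the other main metallothionein of liver, had medians of 64.3 and 197 CPM (-2.31 ± 0.50, adjusted p = 0.00238). For Orm3 every male WT liver, at 1.63 to 8.18 CPM, lay below every female WT liver, at 8.75 to 29.5 CPM, which held for 1.64% of all genes (-2.0 ± 0.48, adjusted p = 0.00570). Apcs ranged from 75.4 to 130 CPM in males and from 126 to 368 CPM in females, and 6 of 7 male livers lay below every female liver (-1.06 ± 0.20, adjusted p = 0.000554). Orm2 was lower in males as well (-1.60 ± 0.50, adjusted p = 0.0350). Lcn2 (-0.37 ± 0.54, adjusted p = 0.733), Orm1 (-0.40 ± 0.18, adjusted p = 0.149), Saa3 (1.03 ± 0.40, adjusted p = 0.0912) and Hp (0.49 ± 0.26, adjusted p = 0.241) were not called.

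Between mice of one group the genes went up and down together. Over the 28 libraries, with the mean of each group removed from log2 CPM, all 45 pairs of genes had a positive Pearson r. Of these, 41 passed a permutation test within groups after adjustment over the 45 pairs. Pairs of other genes were not put through this test, so whether these counts set the chosen genes apart was not tested. Saa1 and Saa2 had r = 0.97 and Spearman rho = 0.96 (permutation p = 1e-05 for both, the smallest possible, adjusted p = 5e-05 and 0.000112). Saa1 and Lcn2 had r = 0.87 and rho = 0.82, and Orm1 and Orm2 r = 0.84 and rho = 0.80, with the same permutation p of 1e-05. Without the 2 libraries farthest from the median of the first gene, r was 0.96, 0.75 and 0.75, and 37 pairs passed. For both pairs with Saa1 the libraries left out were replicate 2 of both female groups.

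Orm3 was the gene least tied to the rest. Its r with Saa3 was 0.19 (rho 0.21, permutation adjusted p = 0.382), with Hp 0.20 (rho 0.12, permutation adjusted p = 0.323), with Mt2 0.33 (rho 0.27, permutation adjusted p = 0.115) and with Apcs 0.37 (rho 0.30, permutation adjusted p = 0.0511). These 4 pairs were the ones that did not pass by Pearson r. Orm3 with Saa1 passed (r = 0.48, permutation adjusted p = 0.0180), but not by rank (rho 0.37, permutation adjusted p = 0.0764). Without replicate 2 of both female groups its r was 0.21 (permutation adjusted p = 0.343). The libraries share depth and tissue sampling, and the relation of these correlations to either was not tested.

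**Figure D4:**
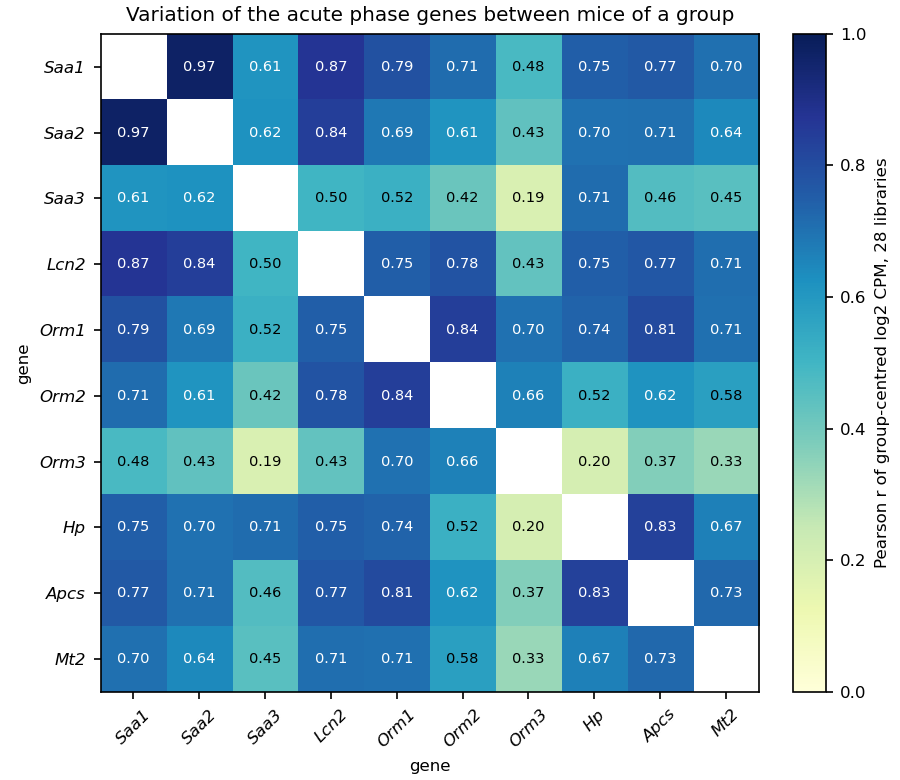
Each cell gives the Pearson r of a pair of genes over 28 libraries after the group means were removed, from 0 (light) to 1 (dark). All values are positive, the highest is 0.97 for Saa1 with Saa2, and the lowest, 0.19 and 0.20, are those of Orm3 with Saa3 and Hp.

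The 3 other genes most alike each one in this measure were sought among 11106 genes with a mean log2 CPM of at least 1, as a description with no test. Hemopexin (Hpx), the haem-binding acute phase protein, came among the 3 for Saa1 (r = 0.81), Lcn2 (0.77), Orm1 (0.82), Hp (0.93) and Apcs (0.86). For Saa2 the 3 were Asb2 (0.79), AW112010 (0.78) and Itgb7 (0.78). After Hpx those most alike Saa1 were AW112010 (0.80) and Tapbp (0.78), and the gene most alike Lcn2 was Tcirg1 (0.82). Serpina10, the protein Z-dependent protease inhibitor, came among the 3 for Lcn2 (0.78), Orm1 (0.82), Hp (0.93) and Mt2 (0.76). Mt1 was the gene most alike Mt2 (0.97), and Cpb2, a liver-made carboxypeptidase, the one most alike Orm1 (0.87). For Saa3 the chemokine gene Ccl2 was second (0.79). For Orm2 and Orm3 no gene reached 0.74, the highest being Cyb561 (0.73) and Cep57l1 (0.71).

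The rest of the acute phase pathway did not move as one in males. In males 11.0% of all genes tested were called lower and 9.68% higher, which is the scale for the male counts of all lists below. Of 21 other genes of positive acute phase proteins 3 were called lower and 5 higher in male SIRT6-tg livers, with a median log2 fold change of -0.07. Those lower were Il1rn, the IL-1 receptor antagonist (-2.14 ± 0.24, adjusted p = 1.29e-07), Cd14, an endotoxin co-receptor (-1.23 ± 0.29, adjusted p = 0.00229), and Steap4 (-0.58 ± 0.20, adjusted p = 0.0368). Among those higher were Hamp, the iron hormone hepcidin (1.18 ± 0.22, adjusted p = 0.000196), and the fibrinogen genes Fga, Fgb and Fgg (0.37, 0.40 and 0.41). Saa4, another serum amyloid A gene, was also called higher (0.40, edgeR, adjusted p = 0.0465). It was not called with RLE (edgeR, adjusted p = 0.0888), upper-quartile scaling (0.153), library size alone (0.652) or DESeq2 (0.0732). Mt1 was not called (-0.94 ± 0.48, adjusted p = 0.181). With library size alone the median of all genes in males moved from 0.06 to -0.22, and 4294 of all 21583 genes tested were called, 4.89% of them higher. Under that setting 6 of the 21 were called lower and Hamp alone higher (0.87), and the fibrinogen genes were not called (0.10, 0.12 and 0.13). Of 7 genes whose products fall in an acute phase, 2 were called higher, Alb (0.35) and Rbp4 (0.49), and 0 lower, whereas 0 were called in either direction with library size alone and DESeq2 called the same number higher as edgeR. With upper-quartile scaling Alb was not called (edgeR, adjusted p = 0.0939) and Rbp4 was (adjusted p = 0.0345).

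Genes of inducing cytokines were lower in males and scarce in every group. Of 10 listed, 9 were tested and 6 were called lower in male SIRT6-tg livers, with a median of -1.53. Tnf had 0.904 to 3.46 CPM in male WT and 0.104 to 0.505 CPM in male SIRT6-tg livers (-2.71 ± 0.39, adjusted p = 6.74e-06). Il1b had 3.71 to 10.8 CPM and 1.54 to 3.57 CPM (-1.53 ± 0.25, adjusted p = 3.83e-05). Neither cytokine's groups overlapped, and in 4.37% of all genes every male SIRT6-tg liver lay below every male WT liver. Il27 (-2.86) and Clcf1 (-1.24) were also called lower, while Il6 never exceeded 0.173 CPM and was not called (-0.02 ± 0.58, adjusted p = 0.987).

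The receptors and transducers that carry these signals to hepatocytes were mostly not called with TMM scaling. Il6ra (0.02), Il6st (-0.17) and Il1r1 (-0.16), which encode the receptors of IL-6 and IL-1, were not called, and of 8 receptors 2 were called higher, Il1rap (0.71) and Lifr (0.38). Stat3 (-0.07), Cebpb (0.35) and Cebpd (-0.17) were not called, and of 15 transducers 2 were called higher, Cebpa (0.47) and Irak1 (0.20), and 1 lower, Nfkb1 (-0.34). Of 7 feedback genes 3 were called lower. These were Socs1, an inhibitor of JAK kinases (-2.62 ± 0.26, adjusted p = 2.36e-08), Tnfaip3, an inhibitor of NF-kB (-1.82 ± 0.19, adjusted p = 7.92e-08), and Nfkbiz (-0.44), whereas Socs3, the STAT3 target that limits IL-6 signalling, was not (-0.56 ± 0.27, adjusted p = 0.151). With upper-quartile scaling Lifr and Irak1 were not called (edgeR, adjusted p = 0.0735 and 0.278), and with RLE Irak1 was not (adjusted p = 0.108). With library size alone Il1rap was the only gene of these lists still called higher (0.43), and 2 of 8 receptors, 6 of 15 transducers and 4 of 7 feedback genes were called lower, among them Socs3 (-0.83, adjusted p = 0.0367). Under that setting 4294 of all 21583 genes tested were called in males, 4.89% of them higher and the rest lower. Of 8 glucocorticoid target genes edgeR called 0, with 0 at an unadjusted p under 0.05, and DESeq2 called 0, with 2 at an unadjusted p under 0.05, whereas with library size alone Sgk1 was called lower (-0.54, adjusted p = 0.00288). Of 6 zinc and metallothionein genes Slc30a10, a metal exporter, was called higher (0.73, but 0.46 with adjusted p = 0.153 with library size alone) and Slc39a4, a zinc importer, lower (-0.59).

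**Figure D5:**
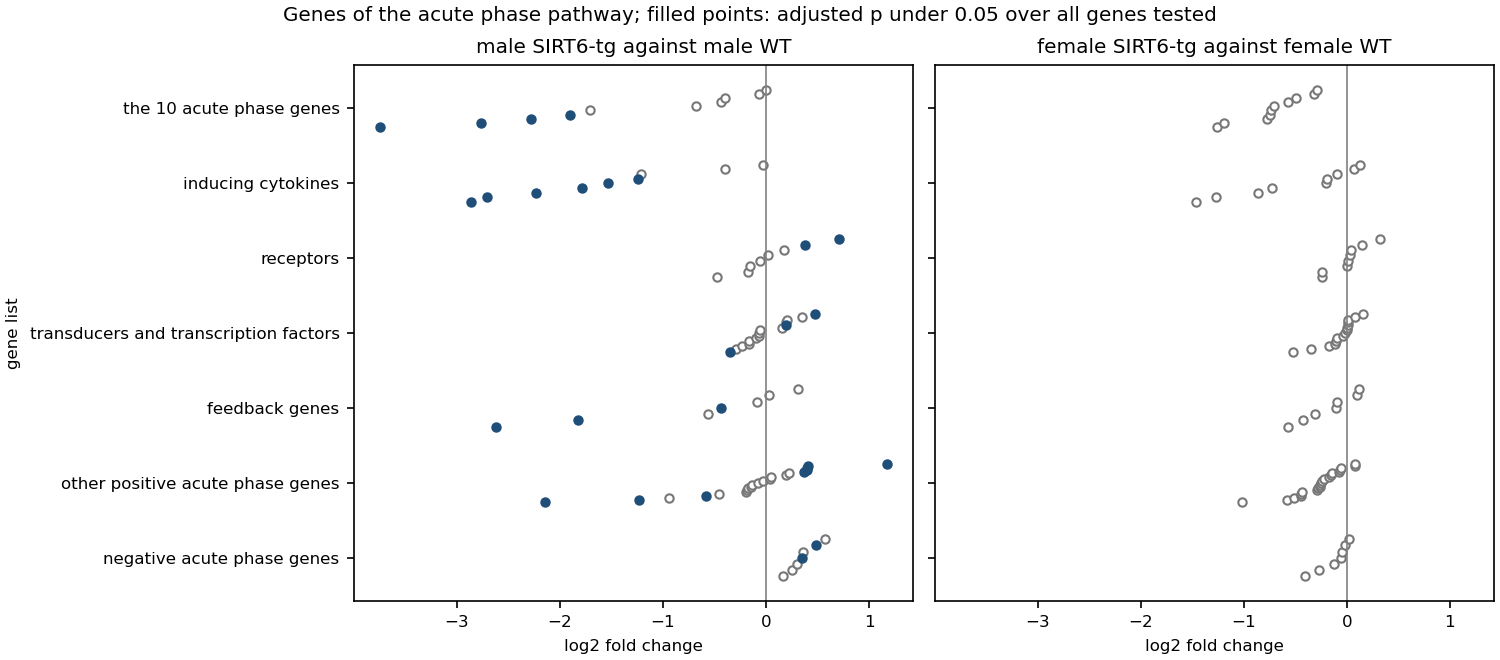
Each point is a gene, placed by its log2 fold change in males (left) and females (right) and grouped in rows by list, with filled points for an adjusted p under 0.05 over all genes tested. In males filled points lie to the left for the 10 genes, the cytokines and 3 feedback genes, and on both sides for other acute phase genes, and in females no point is filled.

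In the female comparison 0 of the 79 genes tested from these 8 lists were called, by edgeR or by DESeq2, and 15 had an unadjusted p under 0.05 with either tool. The sexes differed in the effect of genotype on Il1rn (-1.99 ± 0.32, adjusted p = 0.000404), Tnf (-2.51 ± 0.57, adjusted p = 0.00746), Socs1 (-2.31 ± 0.37, adjusted p = 0.000337) and Hamp (1.10 ± 0.31, adjusted p = 0.0307). In WT livers males held more Tnf (1.94) and Socs1 (2.01) than females, the direction seen for Saa1 and Saa2, and all 6 T-cell markers were higher in males as well. They held less of 12 of the 21 other acute phase genes, with none called higher, among them Fgl1 (-1.64), Itih4 (-1.03), C3 (-0.96) and Crp (-0.62). Of the 7 genes whose products fall in an acute phase, 3 were called lower in WT males as well and 0 higher. These were Serpina6 (-1.72), Alb (-0.69) and Ahsg (-0.63). Over all genes tested 5.71% were called lower and 6.65% higher in WT males.

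Markers of several other cells moved with genotype in males alongside the 4 of the 10 genes that were called. Of 10 Kupffer cell and macrophage markers 9 were called lower, and their summed level was 459 to 1484 CPM in male WT and 398 to 666 CPM in male SIRT6-tg livers, ranges that overlapped. All 6 T-cell markers were called lower, with sums of 10.6 to 31.2 CPM and 3.38 to 4.70 CPM that did not overlap. The 7 stellate cell and fibroblast markers were called lower as well, with sums of 362 to 595 CPM and 248 to 339 CPM. Of 5 B-cell markers 3 were lower, and of 10 hepatocyte markers 5 were higher and 0 lower, of which 0 stayed called with library size alone. With upper-quartile scaling the hepatocyte markers Hpd and F2 stayed called, and Tdo2, Cyp2e1 and Ass1 did not (edgeR, adjusted p = 0.0585, 0.124 and 0.0660). Among endothelial markers 1 of 6 was called lower, among cholangiocyte markers 0 of 5 and among mesothelial markers 0 of 4 by edgeR, with 1 of each at an unadjusted p under 0.05 and with 0 and 1 called by DESeq2. Of 4 adipocyte markers tested Car3, which was abundant in every group, was called higher (1.16) and Plin1 lower (-4.26, adjusted p = 0.0153). Plin1 had a median of 0.0294 and a highest value of 1.95 CPM in male WT livers, and DESeq2 gave it -0.21 and did not call it. Of 12 neutrophil markers only Csf3r was called, and 9 of the 12 averaged under 1 CPM in every group, with sums of 5.59 to 19.5 CPM in male WT and 3.56 to 14.2 CPM in male SIRT6-tg livers. The hepatocyte markers were abundant in every library, with sums of at least 15953 CPM. The part of any of these cells in the lower Saa1, Saa2, Lcn2 and Orm2 of male SIRT6-tg livers was not tested. In females 0 of the 68 marker genes tested were called, by edgeR or by DESeq2, and 8 had an unadjusted p under 0.05 by edgeR and 9 by DESeq2.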

How the data were processed

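RNA of 28 mouse livers, 7 in each of 4 groups set by sex and genotype, was made into libraries with the NEBNext Ultra kit and sequenced as single-end reads. The authors used STAR 2.5.0a for alignment (mm10), then HTSeq to count uniquely mapped reads per gene of Gencode vM12, and the deposited values are raw counts per gene and library, with no normalization. Read length and strand setting are not given in the sources used here, so reads of overlapping genes on opposite strands cannot be told apart. Total counts per library were 18758863 to 35393069.

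The 10 genes and the lists were chosen with earlier results of these data known. Groups and replicate numbers came from the sample labels. Symbols and coordinates came from a Gencode vM21 annotation of the same build (GRCm38). Genes with a mean of at least 0.5 counts after scaling by size factors (21583 of 49585) were tested with edgeR 4.0.16 in R 4.3.3, by the quasi-likelihood F-test with robust dispersion and TMM factors, in 1 fit of all 28 libraries. P-values were adjusted by Benjamini-Hochberg over all genes tested. The named genes of each list were those with the lowest adjusted p, up to 4 in each direction, the textbook inducers and transducers, and Saa4. Correlations used log2 CPM with a prior count of 2 and 100000 shuffles within groups. Paralog count ratios were compared by exact permutation, and their difference between the sexes by shuffling residuals of an additive model 100000 times, a comparison chosen after the values had been seen. Sequences came from RefSeq tables of GRCm38.p6 and were searched in Python 3.11.15. The fitting procedure was tested on simulated data.

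Alternatives were RLE, upper-quartile and no scaling factors, 2 other filters, DESeq2 1.42.0, a fit of each sex alone, replicate number as a block, and each library left out in turn. Leaving out both female libraries numbered 2 was added after seeing the data. WT and SIRT6-tg mice were littermates by the methods, but the labels tie no mouse to a litter, so litter was not in the fit and p-values measure the spread between these libraries.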

Additional observations from a re-analysis of the deposited data

Results flagged for a closer look

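Orm2 stood apart in 1 female SIRT6-tg liver, replicate 2, at 438 CPM against 32.2 to 66.3 CPM in the other 6. The gap to its nearest neighbour took 0.724 of the range of the group on the log2 scale, above the critical value of Dixon's test for 7 samples. The Orm2 to Orm1 count ratio of the same liver, 0.362 against 0.0588 to 0.0847, took 0.799 of its range. These were 2 of 48 groups so examined, and chance alone would single out about 1 in 20.

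The genotype effect on the Saa2 to Saa1 count ratio differed between males and females by -0.77 on the log2 scale (permutation p = 5e-05, adjusted p = 1e-04), and stayed between -0.82 and -0.69 without any 1 library. The effect on the Orm2 to Orm1 ratio differed by -1.35 (permutation p = 0.00257, adjusted p = 0.00257), and lay between -1.52 and -1.02 without any 1 library. Both comparisons were chosen after the values had been seen, and sex cannot be told apart from transgene level in either.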

How the results depend on the processing

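The 4 male calls (Saa1, Saa2, Lcn2, Orm2) held under all 9 other settings and without any 1 of 28 libraries, and 4 to 6 of the 10 genes were called over these settings. In females 1 gene was called without both libraries numbered 2, and 0 to 1 without any 1 library. For the difference between the sexes 2 genes, Lcn2 and Saa2, were called with library size alone, the filterByExpr filter, DESeq2, the replicate block, and without both libraries numbered 2, and 0 to 2 without any 1 library. Both were called without male WT replicate 1, female WT replicate 2, or female SIRT6-tg replicate 5 or 6, and Saa2 also without male WT replicate 5 (adjusted p for Lcn2 0.00821 to 0.150 and for Saa2 0.0166 to 0.135 over all alternatives). Between WT males and females 4 to 8 genes were called, and 4 to 7 without any 1 library. Saa3 was called there with library size alone, with DESeq2 and without male WT replicate 5, and Hp with library size alone. The cause of these changes was not tested.

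Signs turned only for differences that were not called. Orm1 in males was -0.042 with RLE and with DESeq2, -0.084 with upper-quartile scaling, -0.30 with library size alone, -0.013 with filterByExpr, -0.088 with each sex fitted separately, -0.0099 with the replicate block and -0.011 without both libraries numbered 2, and -0.10 to 0.077 without any 1 library. Apcs in males was -0.17 to 0.0089 without any 1 library. In the difference between the sexes, library size alone gave -0.056 for Saa3, -0.15 for Hp and -0.10 for Apcs. There Orm3 was 0.012 with the replicate block and 0.13 without both libraries numbered 2, and without any 1 library it was -0.43 to 0.37, Saa3 -0.041 to 0.60 and Hp -0.045 to 0.32. Lcn2 between WT males and females was 0.33 without both libraries numbered 2, and -0.54 to 0.33 without any 1 library. The Saa2 to Saa1 ratio difference was -0.10 to 0.020 in females and -0.022 to 0.088 between WT sexes without any 1 library.

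Correlations of same-numbered WT and SIRT6-tg libraries of a sex, taken on deviations from the group means, ran from -0.62 to 0.51. Such values cannot tell whether replicate numbers pair the mice. With the replicate block 4 genes were called in males, 0 in females, 2 for the difference between the sexes and 6 between WT sexes. Over all genes the count of calls in females was 6, but 44 with DESeq2, 2 with each sex fitted separately, 14 without both libraries numbered 2 and 3 to 16 without any 1 library. With library size alone 1863 genes were called where the sexes' effects were compared, against 1089, and 4212 between WT sexes against 2669, of which 86.8% were higher in males against 53.8%. Of the 79 genes of the 8 pathway lists 26 were called in males (19 to 27 without any 1 library) and 0 in females (0 to 1 without any 1 library, with 1 without female SIRT6-tg replicate 2).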
